A study of Mus musculus with 4 samples.

Results

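The cyclin-dependent kinase inhibitors of the mouse are the products of 7 genes, Cdkn1a, Cdkn1b, Cdkn1c, Cdkn2a, Cdkn2b, Cdkn2c and Cdkn2d, and all 7 were found among the 31709 genes of the array by their name in the scanner files. They were chosen by family name, and they were covered by 11 probes on 20 spots per array. Total RNA of mouse embryonic fibroblasts (MEFs, fibroblasts cultured from embryos) was measured on Agilent arrays in 4 conditions. WT (p53+/+) MEFs without an agent, WT MEFs with doxorubicin, p53-/- MEFs without an agent and p53-/- MEFs with doxorubicin gave 1 array each, and all 4 arrays lay on 1 slide. Doxorubicin is a drug that traps topoisomerase II on DNA and breaks it. The study used the arrays to look for genes that respond to doxorubicin through p53. Its sources give the doxorubicin dose and time for other assays only, and they do not say how many embryos or cultures stand behind an array. There was therefore no replicate, no p-value was calculated, and the culture, the labeling reaction and the place on the slide cannot be told apart from the condition. In these bulk samples, fewer cells with an RNA and less of it per cell cannot be told apart either.

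Cyclin-dependent kinases drive the cell cycle once a cyclin is bound, and the inhibitors hold them back. The Cip/Kip proteins p21Cip1 (Cdkn1a), p27Kip1 (Cdkn1b) and p57Kip2 (Cdkn1c) bind cyclin-kinase complexes, above all those with Cdk2. The Ink4 proteins p16Ink4a (Cdkn2a), p15Ink4b (Cdkn2b), p18Ink4c (Cdkn2c) and p19Ink4d (Cdkn2d) bind Cdk4 and Cdk6 and keep the D cyclins off them. Both routes leave the retinoblastoma protein bound to E2F factors, so that the genes of DNA synthesis stay low. Cdkn1a is a textbook target of p53, Cdkn2a also encodes p19Arf, which stabilizes p53 by blocking Mdm2, and p27Kip1 is governed to a large part by protein breakdown, which an RNA array does not see.

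The probes decide which transcripts each value stands for, so those of the genes with transcript-specific or disagreeing probes are shown here. They are the 60-base probe sequences of the scanner files, from 5′ to 3′ and in lower case throughout, with mm9 coordinates as the files give them. The leading probe of a gene is the one with the highest mean over the 4 arrays. The leading Cdkn1a probe (chr17:29237377-29237436, plus strand) lists both RefSeq transcripts of the gene, NM_007669 and NM_001111099, and was spotted 10 times. The second (chr17:29227986-29228045) starts at base 55 of NM_001111099 and lists no other RefSeq transcript. It lies 9391 bases upstream of the leading probe. The leading Cdkn1b probe (chr6:134875424-134875483, plus strand) lists NM_009875, whereas the second (chr6:134873606-134873665) lists only Ensembl and cDNA clone records, 1818 bases upstream. The Cdkn2a probes (leading chr4:88920405-88920464, second chr4:88920543-88920602, minus strand) lie 138 bases apart, and both list NM_009877 and NM_001040654, so the array does not separate the p16Ink4a and p19Arf transcripts. Whether a probe lies in a coding or an untranslated part was not analysed here.
Cdkn1a leading: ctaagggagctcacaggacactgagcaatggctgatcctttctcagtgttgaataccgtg
Cdkn1a second: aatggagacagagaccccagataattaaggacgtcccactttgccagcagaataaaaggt
Cdkn1b leading: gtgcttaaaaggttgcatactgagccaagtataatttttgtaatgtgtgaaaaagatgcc
Cdkn1b second: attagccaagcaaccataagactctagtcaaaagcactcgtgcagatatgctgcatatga
Cdkn2a leading: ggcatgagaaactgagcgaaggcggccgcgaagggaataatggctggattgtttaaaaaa
Cdkn2a second: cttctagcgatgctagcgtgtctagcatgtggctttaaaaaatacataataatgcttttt

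Promoters are shown for the genes whose window holds the p53 half-site, the motif of which p53 binds paired copies. The RefSeq promoter table (GRCm38.p6, 250 bases before to 50 after a listed start) holds 9 windows for 6 of the 7 genes. The half-site, searched on both strands without mismatch, is in 2 of these windows and in 8.36% of all 32851 windows. The upstream one of the Cdkn1a windows (chr17:29090729-29091028, plus strand) holds it at 73 and 51 bases before the start. Whether these 2 matches form a pair was not analysed, and copies with a mismatch are left unmarked. The downstream Cdkn1a window (chr17:29093519-29093818) holds no match. The Cdkn2d window (chr9:21291160-21291459, minus strand) holds it at 102 bases before the start. The table does not say which transcript a window belongs to. A match is a description of the letters and not a measured site, and capitals mark the half-sites.
Cdkn1a upstream start: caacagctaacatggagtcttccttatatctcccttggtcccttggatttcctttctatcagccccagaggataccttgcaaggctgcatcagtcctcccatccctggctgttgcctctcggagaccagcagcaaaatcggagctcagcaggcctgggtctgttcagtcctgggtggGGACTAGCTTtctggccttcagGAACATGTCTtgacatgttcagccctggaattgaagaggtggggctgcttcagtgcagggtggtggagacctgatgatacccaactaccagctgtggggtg
Cdkn2d: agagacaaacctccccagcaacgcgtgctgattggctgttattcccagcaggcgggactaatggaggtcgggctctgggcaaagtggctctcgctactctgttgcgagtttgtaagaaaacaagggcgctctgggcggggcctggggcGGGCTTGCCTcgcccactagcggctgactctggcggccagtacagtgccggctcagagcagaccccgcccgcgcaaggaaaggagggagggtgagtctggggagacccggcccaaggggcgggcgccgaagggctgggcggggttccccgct

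Between 56.9% and 62.9% of the 39429 probes on an array were well above background, a flag of the scanner program. A level is given here as the spot signal divided by the 75th percentile of its array (signals of 1819 to 2421). Its error is that of the scanner program, about 0.14 on the log2 scale for a bright probe and 0.20 for a log2 ratio. Over 253 probes spotted 10 times and well above background on all arrays, the log2 signals of repeat spots had an SD of 0.08. Neither covers a second culture or labeling reaction. The leading probes of all 7 genes were well above background on all 4 arrays and brighter there than the brightest of the 153 negative control spots (signals of 77.5 to 250.1). Trp53, the targeted gene, had signals of 1228 and 3442 in untreated and doxorubicin-treated WT MEFs and of 442 and 543 in p53-/- MEFs. Which part of Trp53 the allele lacks is not given in the sources used here, so the remaining signal checks nothing. All 14 fibroblast markers were well above background on every array, with a summed level of 597 to 922. With doxorubicin, 7 of them were at least 2-fold lower in WT MEFs and 3 in p53-/- MEFs, beside 10.4% and 6.89% of all genes. Leukocyte markers (6 to 8 of 9 well above background, summed level 15.2 to 23.3), epithelial (3 to 5 of 7, 5.38 to 18.0), neural (3 to 4 of 6, 9.34 to 24.4), endothelial (2 to 4 of 6, 2.40 to 4.26) and muscle markers (2 to 3 of 6, 0.408 to 1.93) were measured too. Epcam, Cdh5, Gfap, Sox2 and Myod1 were not well above background on any array. Itgam, Krt18, Nes, Kdr and Des, of the same lists, were so on all 4. Untreated WT signals of these were 26264 for Itgam, 16060 for Nes, 9825 for Krt18, 7373 for Kdr and 1625 for Des. The part of all these markers in the results below was not tested.

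With doxorubicin, Cdkn1a was the only inhibitor gene at least 2-fold higher in WT MEFs (4.22-fold), and Cdkn1b, Cdkn2c and Cdkn2d were lower (2.98-fold, 2.29-fold and 3.35-fold). In p53-/- MEFs, Cdkn1a was 4.70-fold higher, and none of the 7 was at least 2-fold lower. The count in WT MEFs was thus 1 of 7 higher and 3 of 7 lower by at least 2-fold. Of all measured genes, 11% were at least 2-fold higher and 10.4% at least 2-fold lower in that comparison. The count in p53-/- MEFs was 1 of 7 higher and 0 of 7 lower, beside 9.24% and 6.89% of all genes. Between the untreated genotypes, 1 of 7 (Cdkn2c) was at least 2-fold higher and 1 of 7 (Cdkn1a) at least 2-fold lower in p53-/- MEFs, where 2.15% and 2.61% of all genes were. Between the doxorubicin-treated genotypes, 3 of 7 (Cdkn1b, Cdkn2c, Cdkn2d) were higher and 2 of 7 (Cdkn1a, Cdkn2b) lower in p53-/- MEFs, beside 11.9% and 10.3% of all genes. The difference of the log2 ratios (WT minus p53-/-) passed a 2-fold difference for 0 of 7 genes upward and for 3 of 7 (Cdkn1b, Cdkn2c, Cdkn2d) downward, beside 8.37% and 9.86% of all genes. The median log2 ratio of the 7 genes was −0.91 with doxorubicin in WT MEFs and 0.01 in p53-/- MEFs, and 0.20 untreated and 0.64 with doxorubicin for p53-/- over WT. The medians of all genes lay within 0.01 of 0 in these 4 comparisons. Scaling to array medians moved the medians of all genes to −0.27 and −0.30 in the doxorubicin comparisons. It then gave 32.1% instead of 51.4% of the 2-fold calls as higher in WT MEFs and 31.3% instead of 57.3% in p53-/- MEFs.

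**Figure D1:**
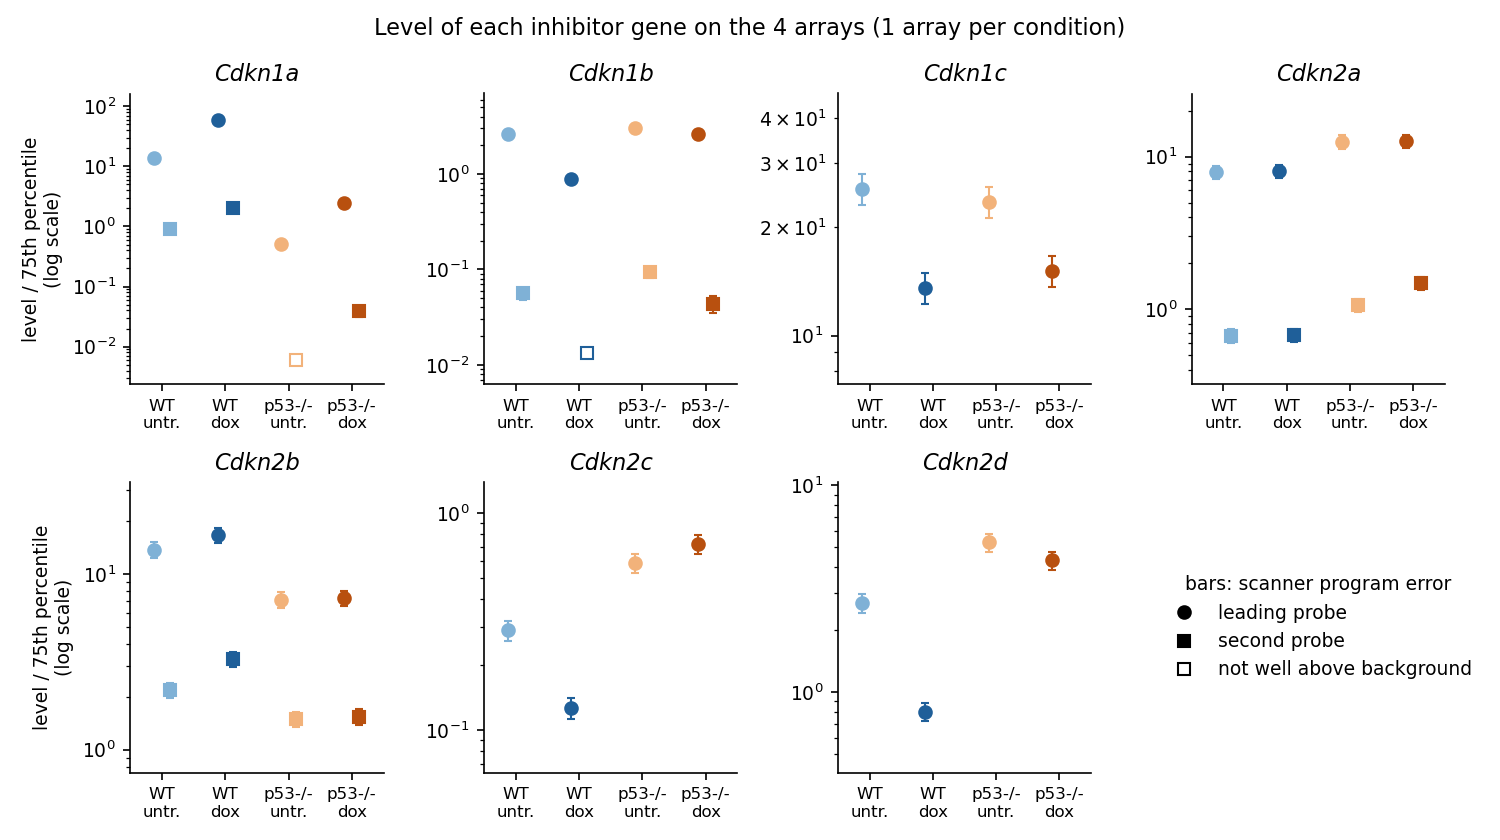
Level of each inhibitor gene relative to the 75th percentile of the array (log scale) on the 4 arrays, 1 per condition (untr., untreated; dox, doxorubicin). Circles are leading probes, squares second probes and open symbols values not well above background, drawn without bars; bars are the error of the scanner program, and levels of different probes are not comparable. Cdkn1a stands lower in both p53-/- conditions than in both WT conditions, while Cdkn1b, Cdkn2c and Cdkn2d are lowest in doxorubicin-treated WT MEFs.

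Cdkn1a encodes p21Cip1, the inhibitor through which p53 stops the cycle. Its leading probe had a level of 13.8 ± 1.38 in untreated WT, 58.3 ± 5.83 in doxorubicin-treated WT, 0.519 ± 0.0525 in untreated p53-/- and 2.44 ± 0.244 in doxorubicin-treated p53-/- MEFs (scanner error). Both p53-/- levels were below both WT levels, and each step in this order was larger than 2 errors. Doxorubicin-treated p53-/- MEFs thus remained below untreated WT MEFs, by 2.50 on the log2 scale. The 10 spots of the probe ranged in signal from 26005 to 29729 in untreated WT, from 99531 to 111272 in doxorubicin-treated WT, from 907 to 1052 in untreated p53-/- and from 5378 to 6350 in doxorubicin-treated p53-/- MEFs. No spot of one array overlapped with a spot of another.

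**Figure D2:**
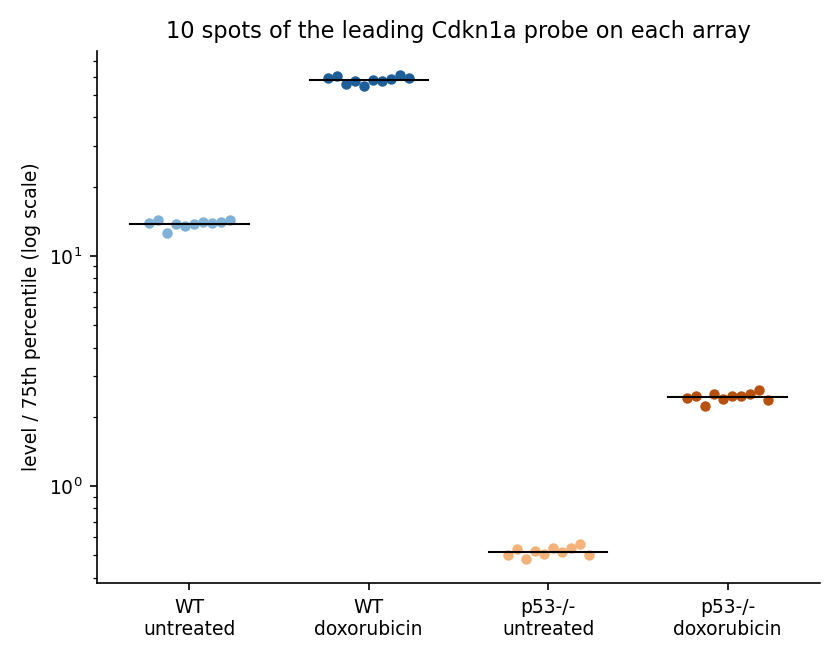
Level of each of the 10 spots of the leading Cdkn1a probe, divided by the array's 75th percentile (log scale), with a line at the geometric mean. The spots of 1 array lie close together, and the 4 arrays do not overlap; spots of an array share 1 RNA sample and are not replicates of a condition.

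Without doxorubicin, Cdkn1a was 26.6-fold lower in p53-/- than in WT MEFs (log2 ratio −4.73 ± 0.21). No other of the 17286 genes measured in both had a lower ratio. Among 917 further genes that were well above background in WT MEFs alone, only Dglucy had a bound beyond that of Cdkn1a, at least 45.4-fold lower. With doxorubicin, Cdkn1a was 23.9-fold lower in p53-/- MEFs (−4.58 ± 0.20), and 41 of 17892 measured genes had a lower ratio. Of 2139 further genes that were well above background in treated WT MEFs alone, 26 had a bound beyond that of Cdkn1a, the highest at least 428-fold lower. The limit was the dimmest well-above-background signal of the p53-/- array (57.9 untreated, 87.1 treated), or the probe's own if higher. The brightest negative controls there were 250.1 and 120, and bounds of these genes against them were not calculated. The doxorubicin ratios of Cdkn1a were 2.08 ± 0.20 in WT MEFs, where 493 of 17513 genes had a larger one, and 2.23 ± 0.21 in p53-/- MEFs, where 259 of 16953 did. Their difference of −0.15 ± 0.29 was smaller than its scanner error. At least a 2-fold rise in both genotypes was seen for 656 of the 16513 genes measured on all 4 arrays (3.97%). On the linear scale, these factors spanned levels from 13.8 to 58.3 in WT MEFs and from 0.519 to 2.44 in p53-/- MEFs.

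The second Cdkn1a probe, which lists NM_001111099, had its values in the same order. Its step between the p53-/- conditions was not larger than 2 errors. Its signals were 1891 in untreated WT, 3692 in doxorubicin-treated WT, 11.3 in untreated p53-/- and 96.2 in doxorubicin-treated p53-/- MEFs. The value in untreated p53-/- MEFs was not well above background, and with doxorubicin it lay under the brightest negative control (120). In WT MEFs the probe was 2.23-fold higher with doxorubicin (log2 ratio 1.16 ± 0.20), less than the 4.22-fold of the leading probe. The loss in untreated p53-/- MEFs was at least 29.6-fold, with the dimmest well-above-background probe of that array as the limit, and 6.85-fold when set against the brightest negative control. With doxorubicin the measured signals were 51.1-fold lower in p53-/- MEFs, and 41.1-fold when set against the brightest negative control. Its doxorubicin ratio in p53-/- MEFs had a bound of at least 1.29-fold higher, which did not hold against the brightest negative control.

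Cdkn1b, the gene of p27Kip1, had a level of 2.62 ± 0.262 in untreated WT, 0.878 ± 0.0880 in doxorubicin-treated WT, 3.01 ± 0.301 in untreated p53-/- and 2.61 ± 0.261 in doxorubicin-treated p53-/- MEFs on its leading probe. Doxorubicin-treated WT MEFs stood alone at the low end, and the other levels did not differ beyond 2 errors between neighbors. The log2 ratio with doxorubicin was −1.58 ± 0.20 in WT MEFs (744 of 17513 genes lower) and −0.20 ± 0.20 in p53-/- MEFs. The genotypes were 0.20 ± 0.20 apart without and 1.57 ± 0.20 apart with doxorubicin (p53-/- over WT). The second probe was dim, at signals of 116, 24.0, 175 and 106 in the order of the conditions above. It was not well above background in doxorubicin-treated WT MEFs, at least 2.30-fold lower than untreated (1.32-fold against the brightest negative control). In p53-/- MEFs it gave −1.09 ± 0.33 where the leading probe gave −0.20, with both of its p53-/- signals below the brightest negative controls of their arrays (250.1 and 120).

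Cdkn1c, an imprinted gene that encodes p57Kip2, was measured by 1 probe (chr7:150644753-150644812, minus strand). Its levels were 25.5 ± 2.55 in untreated WT, 13.6 ± 1.36 in doxorubicin-treated WT, 23.5 ± 2.35 in untreated p53-/- and 15.1 ± 1.51 in doxorubicin-treated p53-/- MEFs. Both treated levels were below both untreated levels. The levels of the genotypes under the same treatment did not differ beyond 2 errors. The log2 ratio with doxorubicin was −0.91 ± 0.20 in WT MEFs, just short of 2-fold, and −0.64 ± 0.20 in p53-/- MEFs, and their difference of −0.28 ± 0.29 was within its error. Scaling to array medians took the WT ratio past 2-fold, at −1.19.

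Cdkn2a showed a genotype difference and no doxorubicin ratio beyond its error on the leading probe. The levels were 7.93 ± 0.793 in untreated WT, 8.07 ± 0.807 in doxorubicin-treated WT, 12.5 ± 1.25 in untreated p53-/- and 12.6 ± 1.26 in doxorubicin-treated p53-/- MEFs. Both p53-/- levels were above both WT levels, by log2 ratios of 0.66 ± 0.20 without and 0.64 ± 0.20 with doxorubicin. The doxorubicin ratios were 0.02 ± 0.20 in WT and 0.01 ± 0.20 in p53-/- MEFs, and scaling to array medians turned them to −0.25 and −0.29. The second probe had levels of 0.670, 0.673, 1.06 and 1.49 in the same order. It gave the same genotype ratio without doxorubicin (0.67) but a larger one with it (1.14), and its doxorubicin ratio in p53-/- MEFs was 0.48 ± 0.20. The probes list the same RefSeq transcripts and thus disagreed on p53-/- MEFs with doxorubicin.

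Cdkn2b, the neighbor of Cdkn2a that encodes p15Ink4b, was the other inhibitor gene at least 2-fold lower in p53-/- than in WT MEFs with doxorubicin. Its leading probe (chr4:88952276-88952335, minus strand) had levels of 13.7 ± 1.37 in untreated WT, 16.6 ± 1.66 in doxorubicin-treated WT, 7.14 ± 0.714 in untreated p53-/- and 7.27 ± 0.727 in doxorubicin-treated p53-/- MEFs. Both p53-/- levels were below both WT levels, and within a genotype the levels did not differ beyond 2 errors. The ratio of p53-/- over WT was −0.94 ± 0.20 without doxorubicin, just short of 2-fold, where 535 of 17286 genes were lower, and −1.19 ± 0.20 with it. The second probe (chr4:88952720-88952779) gave −0.54 ± 0.20 and −1.09 ± 0.20, and a doxorubicin ratio of 0.60 ± 0.20 in WT MEFs where the leading probe gave 0.27 ± 0.20. The adjacent genes Cdkn2a and Cdkn2b thus lay on opposite sides of WT in p53-/- MEFs on all 4 of their probes.

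Cdkn2c, the gene of p18Ink4c, was measured by 1 probe (chr4:109333508-109333567, minus strand). Its levels were 0.288 ± 0.0297 in untreated WT, 0.126 ± 0.0140 in doxorubicin-treated WT, 0.588 ± 0.0593 in untreated p53-/- and 0.718 ± 0.0724 in doxorubicin-treated p53-/- MEFs. Both p53-/- levels were above both WT levels, and they did not differ from each other beyond 2 errors. The log2 ratio with doxorubicin was −1.19 ± 0.22 in WT and 0.29 ± 0.21 in p53-/- MEFs, a difference of −1.48 ± 0.30 (821 of 16513 genes lower). Normexp background correction gave −0.91 in WT MEFs, short of 2-fold. Without doxorubicin, the ratio of p53-/- over WT was 1.03 ± 0.21, just past 2-fold (343 of 17286 genes higher). Array medians (0.98), quantile normalization (0.98) and normexp (0.96) each left it just short of 2-fold. With doxorubicin the ratio was 2.51 ± 0.22, or 5.70-fold (350 of 17892 higher).

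Cdkn2d, the gene of p19Ink4d, had levels of 2.69 ± 0.269 in untreated WT, 0.802 ± 0.0804 in doxorubicin-treated WT, 5.30 ± 0.530 in untreated p53-/- and 4.33 ± 0.433 in doxorubicin-treated p53-/- MEFs (probe at chr9:21092934-21092993, minus strand). As for Cdkn2c, both p53-/- levels were above both WT levels and did not differ from each other beyond 2 errors. The log2 ratio with doxorubicin was −1.75 ± 0.20 in WT MEFs (589 of 17513 genes lower) and −0.29 ± 0.20 in p53-/- MEFs, a difference of −1.46 ± 0.29. The ratio of p53-/- over WT was 0.98 ± 0.20 without doxorubicin, just short of 2-fold (1.05 and thus past it with quantile normalization), and 2.43 ± 0.20, or 5.40-fold, with it.

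Set side by side, the 7 genes fell into unlike patterns. On their leading probes, Cdkn1b, Cdkn2c and Cdkn2d were at least 2-fold lower in WT MEFs with a change under 1.5-fold in p53-/- MEFs. So were 685 of the 16513 genes measured on all 4 arrays (4.15%). With array medians Cdkn2d had −0.59 in p53-/- MEFs, just past 1.5-fold, and with normexp Cdkn2c had −0.91 in WT MEFs, so that each left the pattern there. Cdkn2c and Cdkn2d were the closest pair, with a distance of 0.57 between their 4 log2 levels after the mean of each gene was subtracted, and Cdkn1b was 0.83 from Cdkn2d and 0.99 from Cdkn2c. Cdkn1a was 4.12 or more from each of the others. On the leading probes in p53-/- MEFs, its ratio was the only one of the 7 beyond 1.5-fold apart from that of Cdkn1c, which was lower. The dim second Cdkn1b probe gave −1.09 there, on signals below the brightest negative controls. The comparisons with doxorubicin-treated WT MEFs share that array, so the low level of Cdkn1b, Cdkn2c and Cdkn2d on it enters the doxorubicin ratio in WT MEFs and the genotype ratio with doxorubicin alike.

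**Figure D3:**
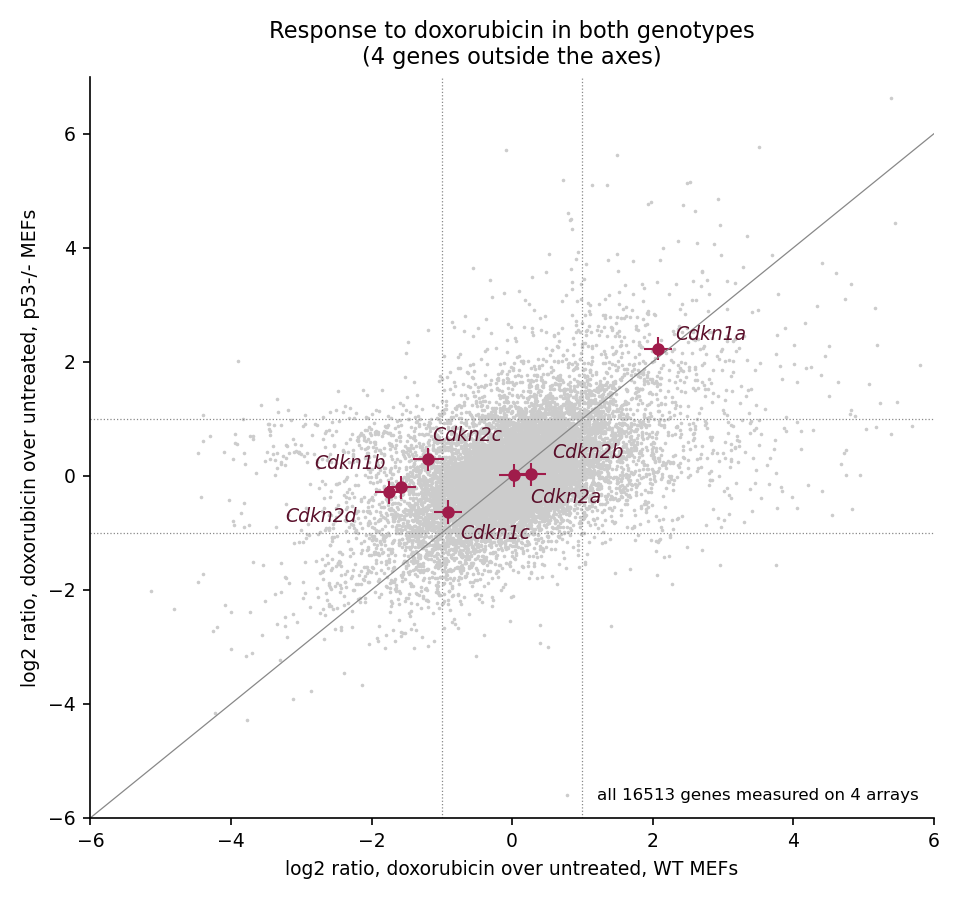
Log2 ratio of doxorubicin-treated over untreated MEFs in WT (horizontal axis) and p53-/- cells (vertical axis) for the 16513 genes measured on all 4 arrays (gray, with 4 outside the axes) and the 7 inhibitor genes (red, bars are the scanner program's error). Dotted lines mark 2-fold and the diagonal equal ratios. Cdkn1a lies on the diagonal at 2.08 and 2.23, and Cdkn1b, Cdkn2c and Cdkn2d lie left of the 2-fold line near 0 on the vertical axis.

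**Figure D4:**
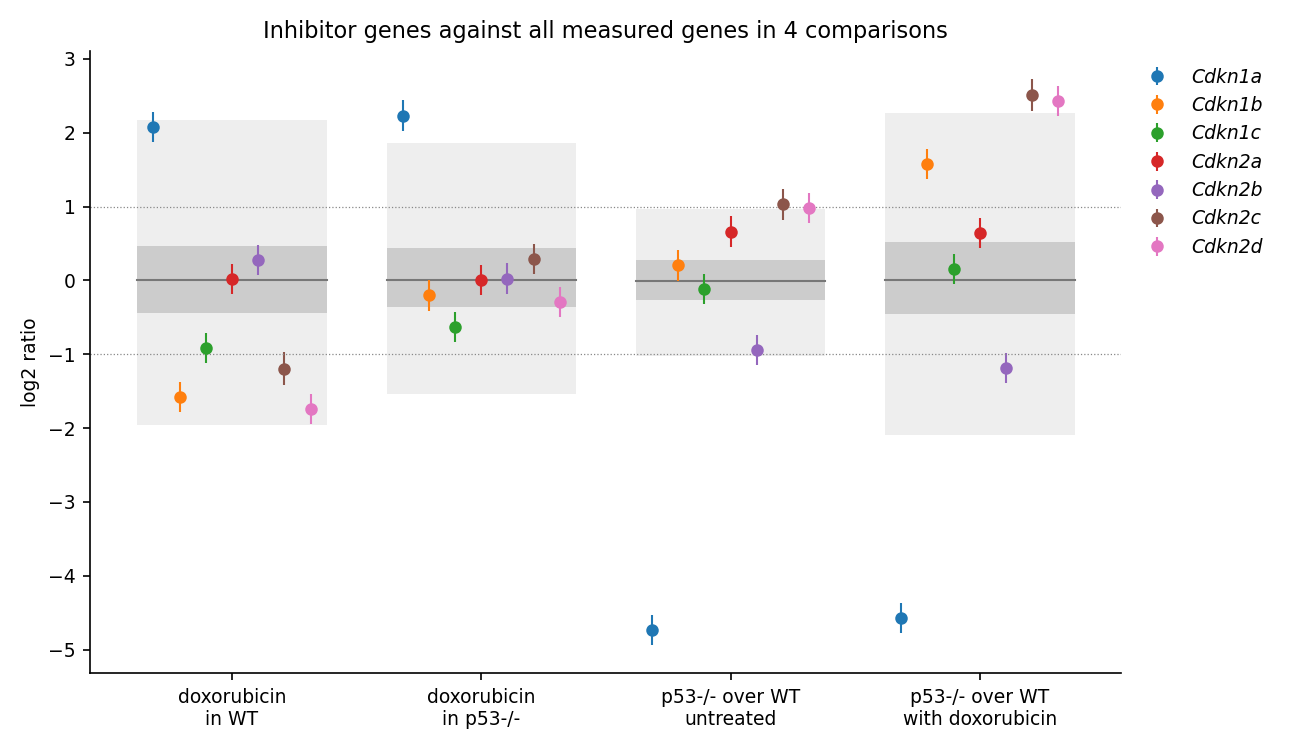
Log2 ratios of the leading probes of the 7 inhibitor genes (points, bars are the scanner program's error) in the 4 comparisons. The light and dark bands hold the middle 95% and 50% of all measured genes, the line is their median, and dotted lines mark 2-fold. Cdkn1a lies far below the bands in both genotype comparisons, at −4.73 and −4.58, and inside the light band with doxorubicin in WT MEFs.

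The genes whose 4 levels resembled each inhibitor most were sought among the same 16513 genes, by the distance between mean-centered log2 levels. This describes 4 arrays. The nearest to Cdkn1a was Trp53inp1, which encodes a p53-inducible nuclear protein, at a distance of 0.74, with doxorubicin ratios of 1.59 (WT) and 1.79 (p53-/-). Tbc1d2 followed at 1.28. No gene lay within 0.5 of Cdkn1a, against 1759 for Cdkn2a, 1477 for Cdkn1c, 322 for Cdkn2b, 255 for Cdkn1b, 79 for Cdkn2c and 44 for Cdkn2d. The distance grows with the size of the changes, so these counts depend on it as well as on the pattern. Centered levels ran from −3.44 to 3.37 for Cdkn1a and from −0.34 to 0.33 for Cdkn2a. The nearest to Cdkn2c were Tonsl (0.06), which acts in the repair of replication forks, and Cdk2 (0.09), the kinase of the S phase. Those nearest to Cdkn2d were Sapcd2 (0.04) and Zfp395 (0.12), and those nearest to Cdkn1b were Il6st (0.04), a subunit of interleukin-6 family receptors, and Fkbp5 (0.07). Anapc4 (0.03), a subunit of the anaphase-promoting complex, and Tmem161a (0.03) were nearest to Cdkn1c, Mrps27 (0.02) and Qtrt2 (0.05) to Cdkn2a, and Lonp2 (0.01) and Ocel1 (0.12) to Cdkn2b.

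The nearest genes on the chromosome were compared with the inhibitor genes. Lockd, a long noncoding RNA gene next to Cdkn1b, had signals of 2131 in untreated WT, 141 in doxorubicin-treated WT, 3432 in untreated p53-/- and 7146 in doxorubicin-treated p53-/- MEFs. Its doxorubicin ratio was −3.73 in WT and 0.69 in p53-/- MEFs, beside −1.58 and −0.20 for Cdkn1b. Faf1, next to Cdkn2c, had −0.57 and −1.56, lower in p53-/- MEFs where Cdkn2c had 0.29. Kri1, next to Cdkn2d, had −0.38 and 0.32. Tgif2-ps1, a pseudogene next to Cdkn2a, had 0.33 and −0.20 on signals of 107.4 to 195. Both of its untreated signals (107.4 in WT, 174 in p53-/- MEFs) were below the brightest negative controls of their arrays (108.3 and 250.1). The nearest listed genes of Cdkn2b were not on the array. Rab44 (next to Cdkn1a), 4933417O13Rik (next to Cdkn1c) and Ap1m2 (next to Cdkn2d) were well above background on 2, 2 and 0 arrays, and gave no doxorubicin ratio.

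Of the targets of the inhibitors, Ccna2, Ccnb1, Ccnb2, Ccne1, Cdk1 and Cdk2 were at least 2-fold lower with doxorubicin in WT MEFs. The D cyclin genes, Cdk4 and Cdk6 were not. Of these, Ccnd3 (−0.91) was just short of 2-fold, and array medians moved the median of all genes to −0.27 in this comparison. Cdk6 was dim in WT MEFs (signals of 133 and 104, brightest negative controls 108.3 and 77.5). Ccne2 gave no ratio, on WT signals of 27.5 untreated and 174 with doxorubicin. At least 2-fold changes were called for 11% (higher) and 10.4% (lower) of all genes in WT MEFs and for 9.24% and 6.89% in p53-/- MEFs, and the lists are to be read beside these shares. Of 13 cyclins and kinases, 11 were measured there, with 6 at least 2-fold lower, 1 higher and a median log2 ratio of −1.21, beside 0.01 for all genes. In p53-/- MEFs, 10 were measured, with 1 lower, 0 higher and a median of 0.27, which scaling to array medians would lower by 0.30. The most negative differences between the genotypes (WT minus p53-/-) belonged to Ccnb2 (−3.45 in WT, 0.30 in p53-/- MEFs) and Cdk1 (−3.22 and 0.31), the cyclin and the kinase of mitosis. The most positive belonged to Ccnd2 (−0.67 and −1.24) and Ccnd1 (1.02 and 0.92), D cyclins that pair with Cdk4 and Cdk6. Cdk4 itself had −0.70 and −0.07. Among 13 genes of the retinoblastoma and E2F group, 2 were higher and 3 lower in WT MEFs, and 2 higher and 0 lower in p53-/- MEFs. The 2 of 13 higher genes are close to the share of all genes in both genotypes. E2f2 (−3.18 and 0.41, on a doxorubicin-treated WT signal of 104.5 beside a brightest negative control of 77.5) and E2f8 (−2.96 and 0.34) stood at one end. At the other stood Rb1 (1.99 and 0.37) and Rbl2 (1.39 and −0.01), genes of pocket proteins that the inhibitors keep active. Rbl1, also a pocket protein gene, went the other way in WT MEFs (−1.20 and 0.03).

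**Figure D5:**
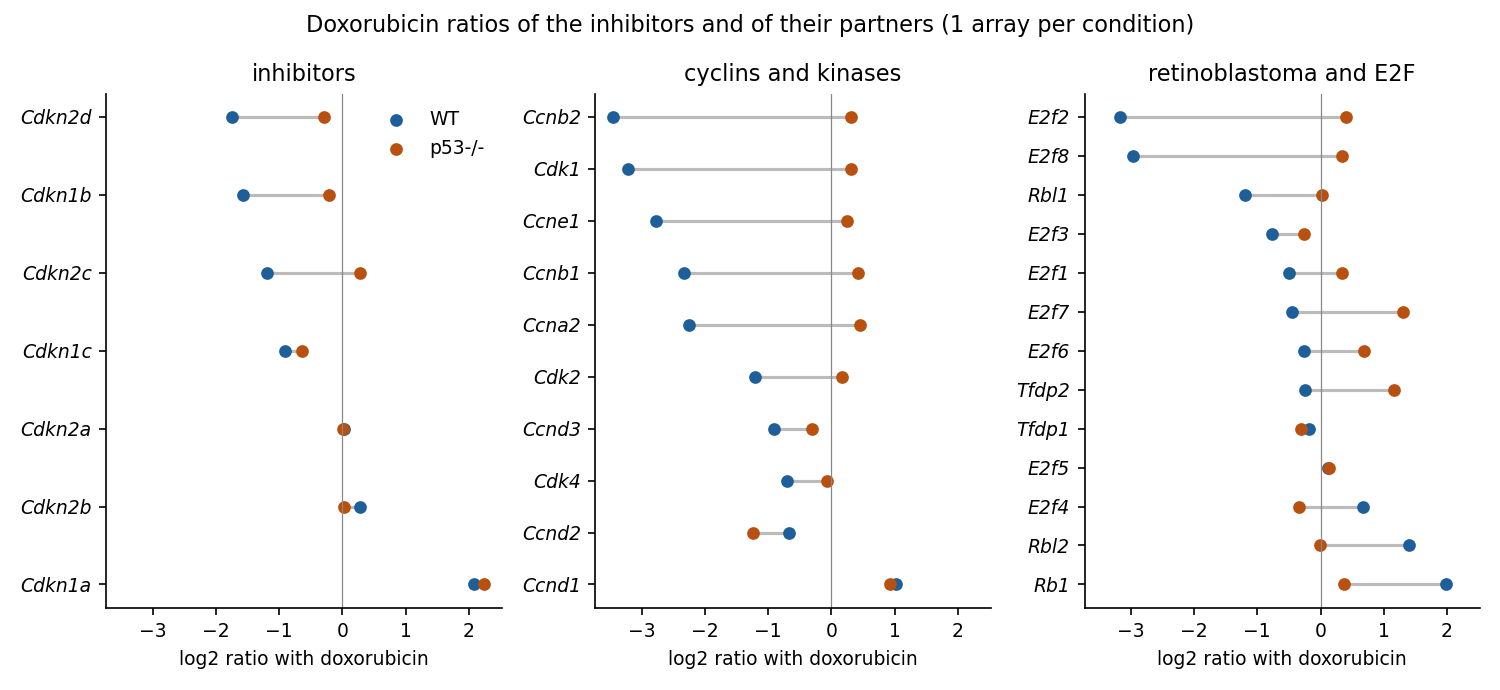
Log2 ratio of doxorubicin-treated over untreated MEFs in WT (blue) and p53-/- cells (orange) for the 7 inhibitor genes and for the listed cyclins, kinases, retinoblastoma and E2F genes measured on all 4 arrays, sorted by the WT value. Blue points spread from −3.45 (Ccnb2) to 2.08 (Cdkn1a), and the orange points of Cdkn2d, Cdkn1b and Cdkn2c lie closer to 0 than their blue ones.

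The genes that act on the inhibitors were read beside the same shares of all genes (11% higher and 10.4% lower in WT, 9.24% and 6.89% in p53-/- MEFs). Of 15 genes of inhibitor turnover, 0 were higher and 4 lower with doxorubicin in WT MEFs, and 1 higher and 0 lower in p53-/- MEFs. Skp2, whose ubiquitin ligase marks p27Kip1 for breakdown, had −1.73 in WT and 0.57 in p53-/- MEFs, beside −1.58 and −0.20 for Cdkn1b. Dtl, which with Cul4 marks p21Cip1 for breakdown in S phase, had −3.46 and 0.82, beside 2.08 and 2.23 for Cdkn1a. The Dtl signal in doxorubicin-treated WT MEFs was 98.9, not far above the brightest negative control (77.5). Rnf123 and Ubac1, the subunits of a ligase for p27Kip1 in G1, had 0.13 and −0.88, and 0.88 and −0.60. Of 17 repressors of the Ink4 and Arf locus, 16 were measured, with 2 higher and 2 lower in WT MEFs and 1 higher and 0 lower in p53-/- MEFs, about the share of all genes in WT MEFs. The Polycomb genes Cbx2 (−1.21 and 0.37) and Suz12 (−0.95 and 0.31) had the most negative differences and the T-box genes Tbx2 (1.55 and −0.28) and Tbx3 (0.04 and −0.67) the most positive. Of 18 activators of inhibitor genes, 14 were measured, with 1 higher and 0 lower in each genotype. That in WT MEFs was Trp53 itself (1.68 and −0.07). Trp63, of the same family, had 0.67 and −0.32, Klf6 0.18 and 0.99, and Klf4, which binds the Cdkn1a promoter, 0.49 and 1.29. Klf4 was also lower in untreated p53-/- than in WT MEFs, by a log2 ratio of −1.39.

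Genes that share the family's name without being members of it are given for contrast. Cdkn3, a phosphatase that acts on Cdk2, had a doxorubicin ratio of −3.69 in WT and 0.64 in p53-/- MEFs, and its signal of 77.3 in doxorubicin-treated WT MEFs was level with the brightest negative control (77.5). Cdkn2aip, which encodes a binding partner of p19Arf, had 0.58 and 1.86, with p53-/- signals of 160 and 746 against a brightest negative control of 250.1 in untreated cells, and Cdkn2aipnl had −0.22 and 0.97. Cdk2ap1, of an inhibitory partner of Cdk2, had −0.08 and −0.44, and Cdk2ap2 1.79 and 1.26.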

How the data were processed

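Cy3-labeled RNA was measured on 4 one-color Agilent arrays, 1 per condition, and read by the authors. Spots were quantified in Agilent Feature Extraction, version 10.7.3.1 by the file headers. Deposited intensities were background-subtracted and detrended by that program and not normalized between arrays. A deposited table of intensities was equal to it (relative difference under 1e-04) at all 43020 spots of each array. The deposited mean and local background intensities served 1 alternative, and flags in the deposited files are coded 0 or 1. The Subio Platform named in the methods was not used.

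Outlier spots (145 to 168 per array) were left out, 0 spots were saturated, and log2 intensities of a probe were averaged and scaled to the 75th percentile. Each gene was represented by its brightest probe on average, and a ratio was measured where this probe was well above background on both arrays. Otherwise the limit was the dimmest signal with that flag (44.3 to 87.1), or by the dim probe's own if higher. A gene was called at 2-fold or more. Intensities carry no counts, so the number of arrays limits the precision. A RefSeq table (GRCm38.p6) named 26055 probes by accession, 3195 by symbol and 930 by synonym, and 9249 kept the file's name. Members and lists were chosen with earlier results of these data known. Named were the 7 genes, Trp53, their nearest measured neighbors on the chromosome, the 2 largest and 2 smallest differences of each list, all genes alike in name only, and the 2 genes nearest in pattern to each inhibitor. Dglucy, Cdk4 and the Klf4 genotype ratio were added after their values were seen. Ccna2, Ccnb1, Ccnd3, Ccne1, Ccne2, Cdk6 and Rbl1 were likewise named outside this rule. Alternatives were array medians, quantile normalization, normexp (offset 50), other filters, the mean of probes, the deposited table, outlier spots kept, 1.5-fold and 3-fold, and the second probe alone. The steps were tested on simulated arrays. Python 3.11.15, numpy 2.4.6, pandas 2.3.3, matplotlib 3.10.9, R 4.3.3 and limma 3.58.1 (normexp only) were used.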

Additional observations from a re-analysis of the deposited data

Results flagged for a closer look

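Cdkn2c had log2 ratios of opposite sign in the genotypes, each beyond its scanner error, but that in p53-/- MEFs not beyond 2 errors. They were −1.19 in WT and 0.29 in p53-/- MEFs, a difference of −1.48. With 1 array per condition this difference was not tested. Scaling to array medians gave −0.01 in p53-/- MEFs, so the opposite direction rests on the scaling, while the difference was −1.46.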

How the results depend on the processing

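None of 329 recomputed log2 ratios of the inhibitor genes reversed a call, and 294 moved by less than the spread of single repeat spots (SD 0.12 for a ratio). Filters and the deposited table leave these values as they are by construction, and under other scalings and normexp 19 of 105 moved by more. Of 88 recomputed counts of inhibitor genes, 80 stayed within 1.5 times the reported ones. Filters and the deposited table leave these counts too as they are by construction, and under other scalings and normexp 22 of 24 stayed. Within that limit, the count lower with doxorubicin in WT MEFs went from 3 to 4 with array medians, as Cdkn1c joined. With normexp that count went to 2, as Cdkn2c left. The count at least 2-fold higher in untreated p53-/- MEFs went from 1 to 0 with array medians and with normexp, as Cdkn2c fell just below 2-fold. With quantile normalization it stayed at 1 but was Cdkn2d (1.05) in place of Cdkn2c (0.98). At 1.5-fold, it was 3, with 2 lower in untreated p53-/- MEFs and 1 lower with doxorubicin in p53-/- MEFs. At 3-fold, it was 0, with 1 lower with doxorubicin in WT MEFs and 1 lower in p53-/- than WT MEFs with doxorubicin. Of 88 recomputed counts over all genes, 30 moved by over 1.5 times. With doxorubicin in WT MEFs, 1930 higher and 1828 lower became 1319 and 2792 with array medians and 4900 and 2868 without a filter. In p53-/- MEFs, 1567 and 1168 became 955 and 2098, and 4719 and 2353, and 875 and 1122 above the brightest negative control. Between the untreated genotypes, 372 and 452 became 1442 and 1673 without a filter, 219 and 306 with normexp and 284 and 288 above the brightest negative control, and with doxorubicin 2128 and 1844 became 3844 and 3617 without a filter. At 3-fold, the 8 counts over all genes were between 44 and 947, and at 1.5-fold between 1501 and 4078. No paired analysis was possible because each condition had 1 array, and for the same reason no array could be left out. A slide block could not be fitted with 1 slide. Signals below the brightest negative control limit the second Cdkn1a and Cdkn1b probes.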
